A study of Homo sapiens with 6 samples.

Results

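CD44, the hyaluronan synthases HAS2 and HAS3, the hyaluronan-degrading genes HYAL2 and CEMIP, and the ezrin, radixin and moesin genes EZR, RDX and MSN were followed in MDA-MB-231 cells after RBCK1 silencing. The 8 genes were chosen by name, with earlier results of these data known, and were found through their Entrez gene numbers. All 8 were among the 17149 genes in each table. MDA-MB-231 is a human cell line of triple-negative breast cancer (TNBC), and its RNA was harvested 48 h after transfection with siRBCK1 or siControl. Each group had 3 libraries. RBCK1, the gene targeted, was at 41.53, 46.15 and 45.61 FPKM in siRBCK1 libraries, against 64.96, 63.62 and 73.37 FPKM in siControl libraries. Its mean fell to 66.0% of the siControl mean, so the fall of its FPKM in these libraries was partial. By qPCR and western blot the study described a dramatic depletion of RBCK1 in this line, and those data were not used here. The labels do not say which siRBCK1 oligonucleotide was sequenced. The labels and methods leave unsaid whether a group's libraries are separate cultures. The p-values therefore cover only library-to-library spread, which may be technical.

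CD44 is a transmembrane glycoprotein that binds hyaluronan, a long sugar polymer of the pericellular matrix, and in breast cancer it is used together with low CD24 to mark cells with stem-like properties. HAS enzymes extrude hyaluronan through the plasma membrane, and HYAL2 and CEMIP take part in cutting it into fragments. Ezrin, radixin and moesin, the ERM proteins, link the cytoplasmic tail of CD44 and of other membrane proteins to cortical actin once they have been opened by phosphoinositide binding and phosphorylation. The study asked how RBCK1 loss changes the transcriptome of TNBC cells and measured CD44 and CD24 at the cell surface in separate experiments, which were not used here.

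Values are FPKM (fragments scaled to gene length and library size), and fold changes are siRBCK1 over siControl on the log2(FPKM + 1) scale, which compresses the changes of low genes. A gene was tested with limma where at least 3 libraries reached 1 FPKM, and it was called at a Benjamini-Hochberg adjusted p under 0.05 over all 11135 tested genes. The sums of FPKM ranged from 587248.4 to 594194.1 in siRBCK1 libraries and from 614082.0 to 659065.0 in siControl libraries. Over all tested genes the log2 fold changes had a median of 0.11, which was 0.01 once the libraries were quantile normalized or scaled by trimmed means. The higher and lower calls among all genes, 4103 and 1899 as deposited, became 2787 and 2703 after quantile normalization and 2724 and 2861 after trimmed-mean scaling. Of the line's markers, VIM and AXL were above 350 FPKM in every library and EGFR was between 12.73 and 22.21 FPKM. The hormone receptor genes ESR1 and PGR were below 1 FPKM throughout, while ERBB2 was between 18.09 and 18.42 FPKM in siRBCK1 libraries and between 11.66 and 14.04 FPKM in siControl libraries. Of the 5 epithelial markers CDH1 and ESRP1 were below 1 FPKM, whereas KRT8, KRT18 and EPCAM were present, and the epithelial sum was between 1110 and 1136 FPKM in siRBCK1 libraries and between 1201 and 1347 FPKM in siControl libraries. Of the markers of other cell types, all 3 endothelial genes, 2 of 3 immune genes and 2 of 4 fibroblast genes stayed below 1 FPKM in every library. The summed fibroblast markers, mostly COL1A1, were between 7.43 and 7.85 FPKM in siRBCK1 libraries and between 4.56 and 5.47 FPKM in siControl libraries. The immune sum, nearly all CD68, was between 88.97 and 91.92 FPKM in siRBCK1 libraries and between 99.43 and 106.11 FPKM in siControl libraries. The part of these marker differences in the results was not tested.

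The region around a start site, from 250 bases before to 50 bases after it, was taken from RefSeq (GRCh38.p14) for 7 of the 8 genes, with a second start for MSN. The regions of EZR and HAS3 lie at starts inside the gene span, not at its outer end. For EZR the region stops at 158818485 and the gene at 158819368. For HAS3 the region begins at 69107290 and the gene at 69083484. The regions of CD44, HYAL2 and EZR are shown because these genes passed the test as deposited and had a region to show. Capitals mark the letters TGANTCA, which AP-1 binds, or GGAATG, which TEAD factors bind, searched on both strands, and these matches did not overlap each other.
CD44, chr11:35138921-35139220, plus strand: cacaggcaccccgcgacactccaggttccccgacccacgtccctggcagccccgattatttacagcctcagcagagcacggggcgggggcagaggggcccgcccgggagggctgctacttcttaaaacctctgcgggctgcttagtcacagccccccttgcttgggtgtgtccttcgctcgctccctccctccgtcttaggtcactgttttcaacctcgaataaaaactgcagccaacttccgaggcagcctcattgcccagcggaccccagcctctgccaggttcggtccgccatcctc
HYAL2, chr3:50322696-50322995, minus strand: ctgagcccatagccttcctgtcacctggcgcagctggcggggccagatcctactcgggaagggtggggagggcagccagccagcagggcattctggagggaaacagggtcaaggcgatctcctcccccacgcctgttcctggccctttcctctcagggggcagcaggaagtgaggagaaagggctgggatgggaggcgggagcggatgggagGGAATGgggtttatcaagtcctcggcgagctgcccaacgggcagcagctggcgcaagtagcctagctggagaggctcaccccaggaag
EZR, chr6:158818186-158818485, minus strand: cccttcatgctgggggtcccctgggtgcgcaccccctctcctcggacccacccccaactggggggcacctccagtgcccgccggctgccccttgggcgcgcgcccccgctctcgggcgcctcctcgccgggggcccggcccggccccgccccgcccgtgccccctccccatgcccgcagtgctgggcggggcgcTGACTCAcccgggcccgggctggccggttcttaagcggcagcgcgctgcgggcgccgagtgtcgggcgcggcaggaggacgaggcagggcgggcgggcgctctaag
GGAATG occurred once, in HYAL2, and 14.0% of all 35116 RefSeq start regions held it. TGANTCA occurred once, in EZR, against 7.7% of all regions. The 300 bases of CD44 held neither, nor did those of HAS3, CEMIP, RDX and MSN. GGGCGG, the GC box of Sp1-type factors, occurred 5 times in the region of EZR, with some of these overlapping each other, 2 times in that of CD44 and not in that of HYAL2, and 45.0% of all regions held it. CEMIP was the 1 gene of the 7 with TATAAA, in a region 30 bases before its start, against 11.5% of all regions. These matches describe letters in the window only.

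CD44 (chromosome 11, from 35139171 to 35232402 on GRCh38) was among the most abundant mRNAs of these cells, at rank 514 of 17149 genes in siRBCK1 cells and rank 448 in siControl cells. It was at 195.18, 173.09 and 184.61 FPKM in siRBCK1 libraries, against 207.81, 230.52 and 218.31 FPKM in siControl libraries. Every siRBCK1 library lay below every siControl library. The mean was 184 ± 11.05 FPKM in siRBCK1 cells and 219 ± 11.4 FPKM in siControl cells (SD, n = 3 each), 15.8% lower after silencing. The log2 fold change was -0.25 (standard error, SE, 0.06, limma adjusted p = 0.00553). The fall was larger after trimmed-mean scaling (-0.37) and after removal of each library's trend with transcript length (-0.43), and it missed the threshold after quantile normalization (-0.16, limma adjusted p = 0.0542). The table gives 1 value for the whole gene, so the standard form of CD44 and its variant exon forms could not be told apart.

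CD24, the partner of CD44 in the stem cell phenotype, lay near the limit of the test. It was at 1.05, 0.93 and 0.99 FPKM in siRBCK1 libraries, against 1.26, 0.88 and 0.77 FPKM in siControl libraries. The groups overlapped, and only 2 of the 6 libraries reached 1 FPKM, so CD24 was not tested. Without the filter on low values its log2 fold change was 0.02 (95% interval from -0.20 to 0.25, limma adjusted p = 0.883).

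**Figure D1:**
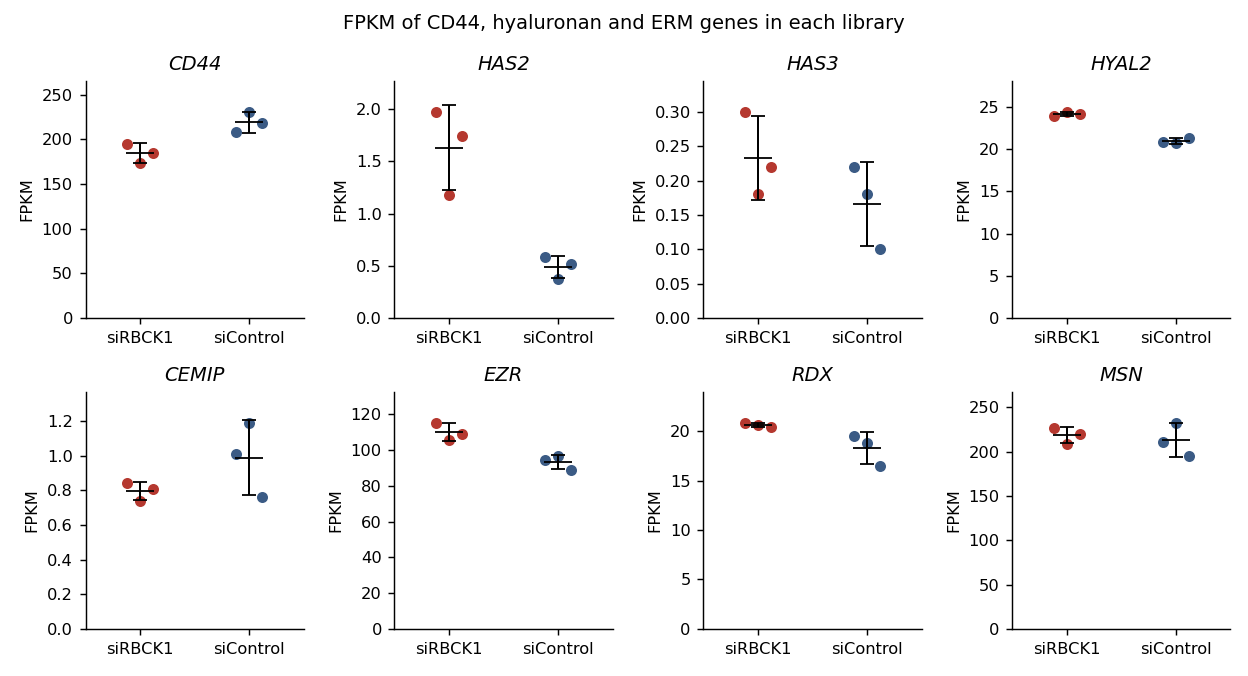
FPKM of each gene (vertical axis of each panel, starting at 0) in the 3 siRBCK1 libraries (red, left) and the 3 siControl libraries (blue, right), with the mean and SD in black. All siRBCK1 points lie below the siControl points for CD44 and above them for HAS2, HYAL2, EZR and RDX, and the points of HAS3, CEMIP and MSN overlap.

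HAS2 had the largest relative change of the 8 genes, at a low level. This synthase makes long hyaluronan chains and is the main HAS gene of many mesenchymal cells. It was at 1.97, 1.18 and 1.74 FPKM in siRBCK1 libraries, against 0.58, 0.37 and 0.52 FPKM in siControl libraries, and the groups did not overlap. The mean of 1.63 ± 0.406 FPKM in siRBCK1 cells was 3.33-fold that of 0.490 ± 0.108 FPKM in siControl cells (SD, n = 3 each). The log2 fold change was 0.81 (SE 0.12, limma adjusted p = 0.000287) and was 1.54 with a pseudocount of 0.1. HAS2 (chromosome 8, from 121612116 to 121641440) passed the filter through its siRBCK1 libraries alone, so a test could be reached only because it was high in that group. Without any filter its adjusted p was 0.00322 from limma, and it rose again with each siRBCK1 library left out of that fit (log2 fold changes between 0.72 and 0.94, highest limma adjusted p = 0.0184).

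HAS3, which makes shorter chains, was lower still and was not tested. It was at 0.30, 0.18 and 0.22 FPKM in siRBCK1 libraries, against 0.22, 0.18 and 0.10 FPKM in siControl libraries, and the groups overlapped. Without the filter its log2 fold change was 0.08 (95% interval from -0.04 to 0.20, limma adjusted p = 0.282). HAS1, the remaining synthase, stayed at or below 0.08 FPKM in every library and was listed at 0 in 2 siRBCK1 libraries. The summed FPKM of the 3 synthases was 2.27, 1.36 and 2.01 in siRBCK1 libraries, against 0.84, 0.63 and 0.68 in siControl libraries. HAS2 held 86.8%, 86.8% and 86.6% of that sum in siRBCK1 libraries, against 69.0%, 58.7% and 76.5% in siControl libraries. The share of HAS3 was 12.5% ± 1.32 in siRBCK1 cells and 23.2% ± 7.41 in siControl cells (SD, n = 3 each), lower by 10.7 percentage points (two-sided exact permutation p = 0.1, the smallest that 3 against 3 libraries can give). The FPKM of HAS3 itself was not lower, with means of 0.233 in siRBCK1 cells and 0.167 in siControl cells. Its smaller share came with the higher HAS2 in the same sum, so the shares are not a result separate from HAS2. At these levels each share rests on values with 2 decimals close to 0.

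Of the genes of hyaluronan breakdown, HYAL2 was moderately expressed and CEMIP was close to the minimum of 1 FPKM. HYAL2, a hyaluronidase anchored to the cell surface, is on chromosome 3 from 50317808 to 50322745. It was at 23.94, 24.41 and 24.17 FPKM in siRBCK1 libraries, against 20.80, 20.75 and 21.35 FPKM in siControl libraries. The SD was 0.235 FPKM in siRBCK1 cells and 0.333 FPKM in siControl cells (n = 3 each), and the groups did not overlap. The mean was 15.3% higher in siRBCK1 cells, with a log2 fold change of 0.20 (SE 0.05, limma adjusted p = 0.0114). The call was lost after quantile normalization (0.08, adjusted p = 0.213), after trimmed-mean scaling (0.08, adjusted p = 0.264) and after removal of the length trend (0.04, adjusted p = 0.577, all from limma), so a rise of HYAL2 relative to the other genes was not shown.

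CEMIP (chromosome 15, from 80779370 to 80951771), which binds hyaluronan and is needed for its breakdown in fibroblasts, was at 0.84, 0.74 and 0.81 FPKM in siRBCK1 libraries, against 1.01, 1.19 and 0.76 FPKM in siControl libraries. The groups overlapped through siControl replicate 3, and only 2 libraries reached 1 FPKM, so it was not tested. Without the filter its log2 fold change was -0.14 (95% interval from -0.34 to 0.06, limma adjusted p = 0.260). HYAL2 was 13.5 ± 3.92 times the summed HAS genes in siRBCK1 cells and 29.7 ± 4.34 times in siControl cells (SD, n = 3 each), a ratio formed after the values had been seen and given without a test.

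MSN and EZR were abundant and RDX was not. MSN, the moesin gene (chromosome X, from 65588377 to 65741931), was at 226.44, 208.80 and 220.09 FPKM in siRBCK1 libraries, against 210.93, 232.77 and 194.79 FPKM in siControl libraries. The siRBCK1 values lay inside the range of the siControl values. The log2 fold change was 0.04 (95% interval from -0.11 to 0.19, limma adjusted p = 0.628), and its sign turned after trimmed-mean scaling (-0.08), after removal of the length trend (-0.11) and without siControl replicate 3 (-0.02).

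EZR, the ezrin gene (chromosome 6, from 158765748 to 158819368), was at 115.36, 105.89 and 109.03 FPKM in siRBCK1 libraries, against 94.45, 96.69 and 89.16 FPKM in siControl libraries. All siRBCK1 libraries were higher. The mean was 110 ± 4.82 FPKM in siRBCK1 cells and 93.4 ± 3.87 FPKM in siControl cells (SD, n = 3 each), 17.8% higher, with a log2 fold change of 0.23 (SE 0.05, limma adjusted p = 0.00442). After quantile normalization it was 0.25 (limma adjusted p = 0.00474). It was 0.11 after trimmed-mean scaling (limma adjusted p = 0.104) and 0.12 after removal of the length trend (limma adjusted p = 0.0572).

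RDX, the radixin gene (chromosome 11, from 110174922 to 110296614), was at 20.86, 20.63 and 20.40 FPKM in siRBCK1 libraries, against 19.56, 18.80 and 16.44 FPKM in siControl libraries. The groups did not overlap, but the siControl libraries varied and RDX missed the threshold, with a log2 fold change of 0.17 (SE 0.07, limma adjusted p = 0.0628). It passed without siControl replicate 1 (0.22, limma adjusted p = 0.0389), was 0.10 without siControl replicate 3, and its sign turned after removal of the length trend (-0.0014).

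Of the 8 genes, 6 passed the filter on low values and were tested. HAS2, HYAL2 and EZR were higher, CD44 was lower, and RDX and MSN did not pass. Among the 11135 genes tested, 36.8% passed as higher and 17.1% as lower, 53.9% in all, so being called is usual in these libraries. The groups did not overlap for 5 of the 6, against 62.8% of all tested genes, and of these 4 were higher, against 42.7%, and 1 was lower, against 20.1%. The way HAS2 passed the filter fixed its direction and its lack of overlap. Without it, 2 of 5 genes were called higher and 1 lower, 4 did not overlap (3 higher and 1 lower), and the median log2 fold change was 0.17, beside 0.11 for all tested genes. After trimmed-mean scaling or removal of the length trend, HAS2 was the 1 gene still higher and CD44 was still lower. Both settings kept the filter, so the direction of HAS2 was fixed there too. Of all tested genes, 24.5% were higher and 25.7% lower after trimmed-mean scaling, and 25% and 26.2% after removal of the length trend.

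**Figure D2:**
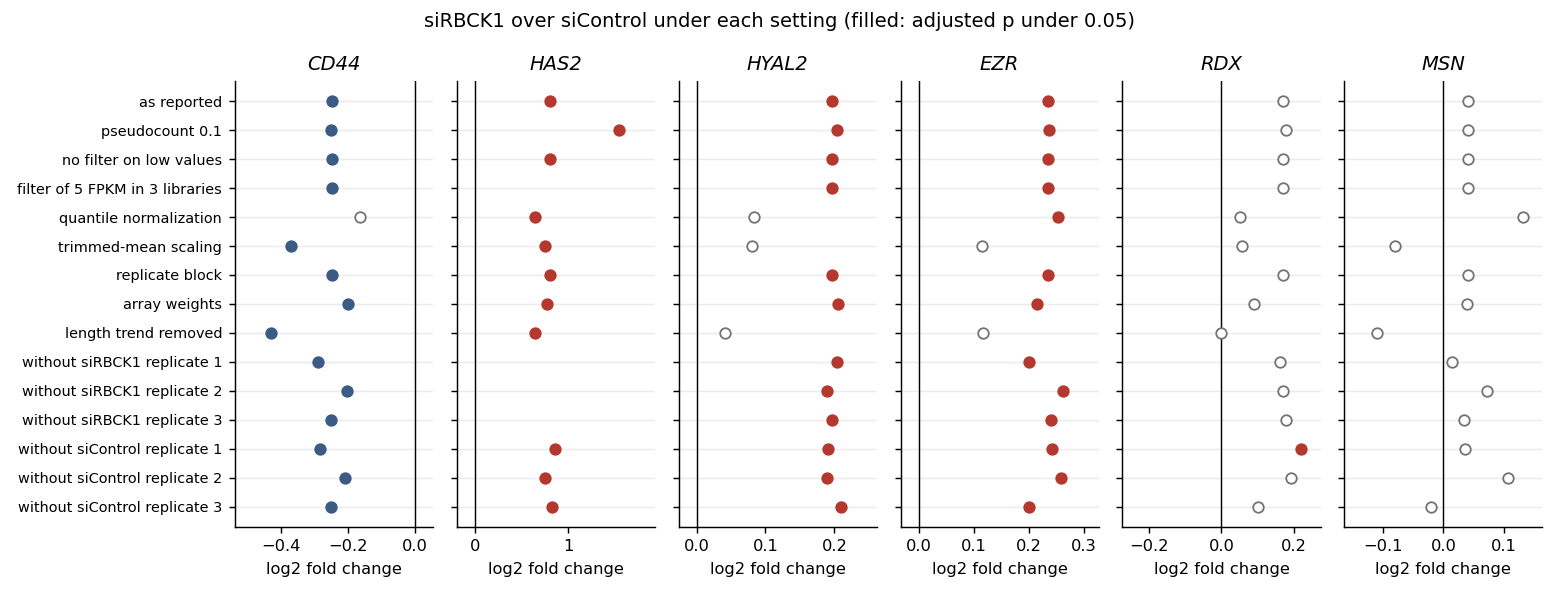
Log2 fold change of each tested gene (horizontal axis, a separate scale in each panel) under each setting (rows), filled where the adjusted p from limma was under 0.05. HAS2 is filled in each setting where it was tested, CD44 in all but quantile normalization, and MSN in none. In settings with the filter on low values, HAS2 was tested only through its siRBCK1 libraries, which fixed its direction.

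In order of level, the siControl cells had CD44 and MSN at the top, with ranges that overlapped, and then EZR, HYAL2, RDX, CEMIP, HAS2 and HAS3, with ranges that did not overlap between neighbours. In siRBCK1 cells the ranges of MSN and CD44 no longer overlapped, with MSN from 208.80 to 226.44 FPKM and CD44 from 173.09 to 195.18 FPKM, and HAS2 lay above CEMIP. Shares within a library do not depend on any single factor by which it is scaled. MSN held 62.4%, 62.3% and 63.0% of the summed ERM FPKM in siRBCK1 libraries, against 64.9%, 66.8% and 64.8% in siControl libraries. EZR held 31.8%, 31.6% and 31.2% in siRBCK1 libraries, against 29.1%, 27.8% and 29.7% in siControl libraries. The groups did not overlap for either share, and the means differed by -2.97 percentage points for MSN and 2.69 for EZR (two-sided exact permutation p = 0.1 each, the smallest possible with 3 against 3 libraries). The difference for MSN was -1.45 after quantile normalization, which does not scale by a single factor. RDX held 5.91% ± 0.211 in siRBCK1 cells and 5.63% ± 0.339 in siControl cells (SD, n = 3 each, two-sided exact permutation p = 0.3). CD44 relative to the summed ERM genes was 0.538, 0.516 and 0.528 in siRBCK1 libraries, against 0.640, 0.662 and 0.727 in siControl libraries. Relative to EZR alone it was 1.67 ± 0.0335 in siRBCK1 cells and 2.34 ± 0.129 in siControl cells (SD, n = 3 each). Both CD44 ratios were chosen after the values had been seen and were not tested.

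**Figure D3:**
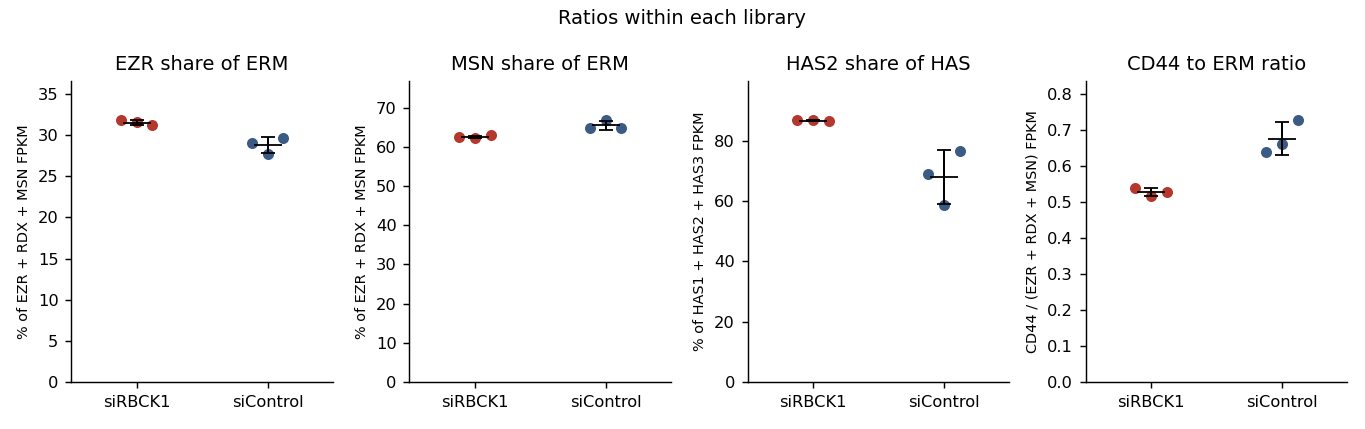
Share of EZR and of MSN in the summed EZR, RDX and MSN FPKM, share of HAS2 in the summed HAS FPKM (all in %), and ratio of CD44 to the summed ERM FPKM, for the 3 siRBCK1 libraries (red, left) and the 3 siControl libraries (blue, right), with the mean and SD in black and axes from 0. The siRBCK1 libraries lie above the siControl libraries for EZR and HAS2 and below them for MSN and for the CD44 ratio. The HAS2 share is not a result separate from the level of HAS2.

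Besides the members, 18 tested genes supply, cut or bind hyaluronan or belong to its matrix. Of these, 5 passed as higher, 2 as lower and 11 not at all. So 38.9% of the 18 were called, beside 53.9% of all tested genes. CD44, HAS2 and HYAL2 were called as deposited (HAS2 through a filter that fixed its direction) but are not among the 18. The share therefore does not cover the whole pathway. Of 8 genes for its sugar precursors, 2 passed as higher and 1 as lower, with a median log2 fold change of 0.07 that turned to -0.05 after trimmed-mean scaling. GFPT1, 1 of the genes for the first step of the hexosamine pathway, was at 14.99, 13.47 and 14.90 FPKM in siRBCK1 libraries, against 9.27, 10.49 and 8.45 FPKM in siControl libraries, a log2 fold change of 0.57 (limma adjusted p = 0.000303). GFPT2, listed for the same step, was more abundant and did not pass. It was at 40.39, 38.91 and 41.31 FPKM in siRBCK1 libraries, against 41.33, 43.91 and 41.68 FPKM in siControl libraries (log2 fold change -0.07, limma adjusted p = 0.277). PGM3, further along the pathway, rose by 0.24 on the log2 scale, a call lost under all 3 scalings and without siRBCK1 replicate 3. NAGK, which salvages N-acetylglucosamine, fell by 0.60 and was at 28.5 ± 1.19 FPKM in siRBCK1 cells and 43.6 ± 2.61 FPKM in siControl cells (SD, n = 3 each). UGDH, which makes the glucuronic acid precursor, did not pass (limma adjusted p = 0.0629).
Of 6 tested genes among the other synthases, hyaluronidases and exoglycosidases, 1 passed as higher, HYAL3 fell by 0.26 on the log2 scale, and 4 did not pass. The call for HYAL3 was lost without siRBCK1 replicate 1 or 2 or siControl replicate 2. Of 18 other genes of hyaluronan-binding proteins or of hyaluronan-rich matrix only 4 were tested, and 9 were under the minimum. PTX3, a pentraxin of hyaluronan-rich matrix, rose by 0.73, and was at 17.99, 18.01 and 20.02 FPKM in siRBCK1 libraries, against 12.34, 11.05 and 9.37 FPKM in siControl libraries. LAYN, a membrane receptor for hyaluronan, rose by 0.17, a call lost after trimmed-mean scaling (0.05), after removal of the length trend (0.08) and without siRBCK1 replicate 3. HMMR, the motility receptor RHAMM, had a log2 fold change of 0.19 (limma adjusted p = 0.106).

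CD44 is shed by membrane proteases and then cut by gamma-secretase, and among 10 genes of that route 3 passed as higher, 3 as lower and 4 not at all (median log2 fold change 0.05). For all tested genes the shares were 36.8% higher and 17.1% lower. ADAM17, a sheddase, was at 8.97 ± 0.897 FPKM in siRBCK1 cells and 5.65 ± 0.951 FPKM in siControl cells (SD, n = 3 each), with no overlap, a log2 fold change of 0.59 (limma adjusted p = 0.00133). TIMP3, an inhibitor of ADAM17, was at 33.49, 32.46 and 34.67 FPKM in siRBCK1 libraries, against 51.78, 54.98 and 46.54 FPKM in siControl libraries, a log2 fold change of -0.59 (limma adjusted p = 5.78e-05). The other sheddases, ADAM10 and MMP14, did not pass (limma adjusted p = 0.234 and 0.360). The gamma-secretase subunits split, since APH1A rose by 0.48 and NCSTN by 0.42 (0.26 without siControl replicate 3), whereas PSENEN fell by 0.41 on the log2 scale. PSENEN was named after its values were seen. The median of the 10 genes turned negative under each scaling, at -0.065 after quantile normalization, and was 0.003 without siControl replicate 3.
Of 11 tested factors that act on CD44 splicing, 4 were higher and 7 did not pass (median log2 fold change 0.08, but -0.046 after trimmed-mean scaling). Among all tested genes 36.8% were higher, a similar share, and 17.1% were lower. HNRNPA1, whose reads can be shared with its many pseudogene copies, rose by 0.48, HNRNPM by 0.42, KHDRBS1 (Sam68) by 0.32 and TRA2B by 0.21 on the log2 scale. The call for TRA2B was lost after trimmed-mean scaling (0.09) and removal of the length trend (0.11). ESRP1, the epithelial splicing factor of CD44 variant exons, was at or below 0.11 FPKM in every library.

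Regulators of the ERM proteins were called in both directions. Of 14 genes, 8 passed as higher, 3 as lower and 3 not at all (median log2 fold change 0.17), and the counts became 4 higher and 6 lower after trimmed-mean scaling, where the median was 0.058 (it was -0.007 after removal of the length trend). The shares of all tested genes were 36.8% higher and 17.1% lower, and 24.5% and 25.7% after trimmed-mean scaling. Only 4 of the 14 were higher without any 1 siRBCK1 library, and 5 without siControl replicate 1. NHERF2, a PDZ scaffold that ERM proteins bind, was at 98.04, 102.56 and 99.30 FPKM in siRBCK1 libraries, against 173.13, 176.63 and 197.37 FPKM in siControl libraries, a log2 fold change of -0.86 (SE 0.06, limma adjusted p = 1.92e-06). STK10 (LOK), a kinase of the ERM C-terminal threonine, was at 17.22, 16.28 and 15.93 FPKM in siRBCK1 libraries, against 26.51, 28.75 and 26.85 FPKM in siControl libraries, a log2 fold change of -0.70 (limma adjusted p = 1.22e-05). ARHGDIA, a GDP dissociation inhibitor that ERM proteins can bind, fell by 0.54, and PIP5K1A, which makes the phosphoinositide that opens ERM proteins, rose by 0.52 on the log2 scale. NF2, which encodes the related protein merlin, was at 2.41 ± 0.299 FPKM in siRBCK1 cells and 2.77 ± 0.140 FPKM in siControl cells (SD, n = 3 each, limma adjusted p = 0.183).
Beside 36.8% higher and 17.1% lower of all tested genes, 9 tested membrane partners of ERM proteins had 2 higher, 4 lower and 3 that did not pass. Their median log2 fold change was -0.005, against -0.12 after quantile normalization and 0.036 without siControl replicate 3. PODXL, the sialomucin podocalyxin that binds ezrin and NHERF scaffolds, changed most, at 26.74, 23.22 and 25.26 FPKM in siRBCK1 libraries, against 11.32, 12.16 and 8.76 FPKM in siControl libraries. Its log2 fold change was 1.16 (SE 0.10, limma adjusted p = 1.34e-05), and it was called in all 14 other settings, at 1.03 or more. ICAM3 and ICAM2, adhesion molecules with ERM-binding tails, fell by 0.60 and 0.53, while ICAM1 had a log2 fold change of 0.12 (limma adjusted p = 0.226). MUC1 fell by 0.31, a call lost in 7 of 13 other settings, among them those without any 1 siRBCK1 library (-0.33 to -0.29) and without siControl replicate 2 (-0.18) or 3 (-0.31).
Of 7 tested genes among intracellular partners of CD44 and stem cell markers, 2 were higher, 1 was lower and 4 did not pass. For all tested genes, 36.8% were higher and 17.1% lower. The median log2 fold change of the 7 was 0.22. The median was 0.108 after trimmed-mean scaling, 0.082 after removal of the length trend and 0.101 without siControl replicate 3, with 1 gene higher in each. CD74, a receptor for MIF that signals with CD44, was at 346.64, 348.63 and 331.66 FPKM in siRBCK1 libraries, against 491.29, 502.41 and 547.82 FPKM in siControl libraries, a log2 fold change of -0.58 (limma adjusted p = 1.96e-05). VAV2, a guanine nucleotide exchange factor, rose by 0.34, a call lost in 8 of 14 other settings, among them all 3 rescalings, those without any 1 siRBCK1 library (0.30 to 0.37) and that without siControl replicate 3 (0.17). ITGA6 and EPCAM did not pass (limma adjusted p = 0.0721 and 0.198), and PROM1 and ALDH1A1 stayed below 0.1 FPKM in every library.

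**Figure D4:**
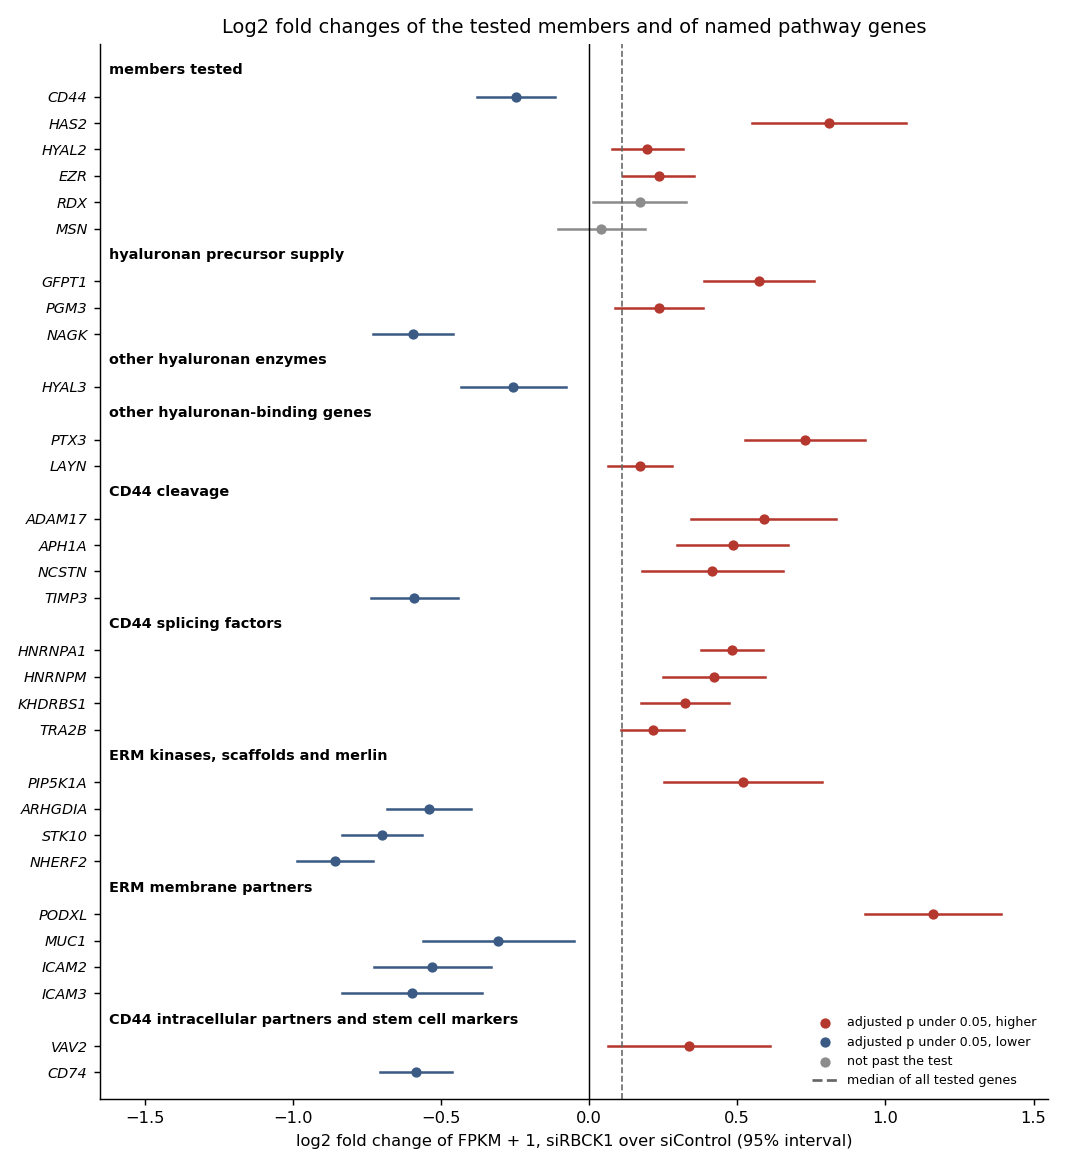
Log2 fold change (horizontal axis, siRBCK1 over siControl on the FPKM + 1 scale) with its 95% interval from limma for the 6 tested members and genes named from each list, coloured by call, with the median of all tested genes, 0.11, as a dashed line. PODXL lies farthest to the right at 1.16 and NHERF2 farthest to the left at -0.86, and the intervals of RDX and MSN are grey.

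Across the 6 libraries, the profile of CD44 was closest to that of CAP1, an actin-regulating cyclase-associated protein, among 7803 other genes with a mean of at least 5 FPKM. The root mean square difference of their log2 values, centred on the siControl mean, was 0.019. CAP1 was at 191.82, 175.29 and 182.51 FPKM in siRBCK1 libraries, against 211.53, 228.15 and 217.13 FPKM in siControl libraries. GCDH, TP53I11, MID1 and the collagenase gene MMP1 came next, with root mean square differences between 0.026 and 0.035. A change close to that of CD44 followed from how these 5 genes were chosen, so their fold changes are not given as results.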

How the data were processed

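RNA of MDA-MB-231 cells was sequenced on the BGI platform, with 3 siRBCK1 and 3 siControl libraries. The authors deposited FPKM values with 2 decimals for 17149 genes, on GRCh38 by the submitters' processing notes. The sources used here do not give the aligner, quantification tool, annotation, filters or use of strand. Read totals are not given and depth was not estimated from the values, so depth is unknown and no count test was run. Genes above 0 in both libraries of a pair numbered 14986 to 15025 within siRBCK1 and 14710 to 14794 within siControl. The part of this difference in the results for low genes was not tested. The header inside the siRBCK1 replicate 2 table names replicate 1. Its values equalled those of replicate 1 for 3.28% of genes above 0 in both, against 2.26% to 3.27% for other pairs within a group, and it was kept as a library. RefSeq gave a symbol for 17022 gene numbers and none for 127. Lengths were those of the longest coding transcript in GENCODE 29.

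Genes reaching 1 FPKM in 3 or more libraries (11135) were compared on log2(FPKM + 1) values by limma 3.58.1 under R 4.3.3 (intensity trend, two-sided, Benjamini-Hochberg). Shares were tested with exact permutations over libraries. The main limma fit was tested on simulated data, and the share tests and alternative settings were not. Alternatives were each library left out, array weights, a replicate block, 3 rescalings (trimmed mean, quantiles, length trend removed), a minimum of 5 FPKM or none, and a pseudocount of 0.1. The members and lists were chosen with earlier results of these data known. From each list, up to 4 genes were named, by size of log2 fold change among called genes whose groups were apart and where either group averaged 5 FPKM or more. The other named genes are the members, RBCK1, CD24 and the 5 profiles nearest to CD44, and any others were named after their values were seen. Some listed genes are counted but not reported here by name.

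RefSeq places CD44-AS1 over CD44, HAS2-AS1 over HAS2, EZR-AS1 over EZR, MESD over CEMIP and TANGO6, CHTF8 and DERPC over HAS3, and GENCODE 29 lists 1 MSN pseudogene (MSNP1), so reads of these could be shared.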

Additional observations from a re-analysis of the deposited data

How the results depend on the processing

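Of all tested genes, 4103 were higher and 1899 lower, against 2724 and 2861 after trimmed-mean scaling and 2769 and 2899 after removal of the length trend. Without any filter, 17127 genes were tested. Of the members, 3 were higher as deposited, and 1 was higher after trimmed-mean scaling or removal of the length trend. That 1 was HAS2, which passed the filter through its siRBCK1 libraries alone. CD44 was the 1 lower member, and 0 were lower after quantile normalization, where its log2 fold change was -0.16, while the other 13 of its 14 alternatives kept the call. HYAL2 lost its call after quantile normalization (0.084), trimmed-mean scaling (0.081) and removal of the length trend (0.041), and EZR after trimmed-mean scaling (0.11) and removal of the length trend (0.12). RDX turned after removal of the length trend (-0.0014). MSN turned after trimmed-mean scaling (-0.080), after removal of the length trend (-0.11) and without siControl replicate 3 (-0.021). After quantile normalization the share of MSN differed by -1.45 percentage points (two-sided exact permutation p = 0.3) and that of RDX by -0.45 (p = 0.2 from the same exact test). The cause of these changes was not tested.

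With 1 library left out, the members called were 2 to 4 higher and 1 lower, and the log2 fold changes ranged from -0.29 to -0.20 for CD44, from 0.75 to 0.85 for HAS2, from 0.19 to 0.21 for HYAL2, from 0.20 to 0.26 for EZR, from 0.10 to 0.22 for RDX and from -0.02 to 0.11 for MSN. HAS2 was under the filter without any 1 siRBCK1 library, and its values without the filter were added after seeing the data. All genes called ranged from 3061 to 4151 higher and from 1479 to 1952 lower.

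Replicate numbers are shared by the groups, but neither labels nor methods tie a number to a common culture. Deviations of same-numbered libraries correlated at -0.06, -0.19 and -0.04, and those of libraries with unlike numbers between -0.15 and 0.23. No pairing by number was seen, but deviations from means of 3 libraries constrain each other, so this cannot exclude one. With a replicate block, 3812 genes were higher and 1739 lower. CD44 (-0.25, adjusted p = 0.0163), HYAL2 (0.20, adjusted p = 0.0308) and EZR (0.23, adjusted p = 0.0108, all from limma) kept their calls. HAS2 was at 0.81 (limma adjusted p = 0.000192). The block fit kept the filter that HAS2 passed through its siRBCK1 libraries alone, so its direction was fixed there too. Depth is unknown, so the precision of HAS2, HAS3, CEMIP and CD24, all near 1 FPKM or below, can be judged only from the spread of the libraries.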

Other observations

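Several low or moderately expressed genes of the same pathways were called but lay outside the naming rule, and they are given after their values were seen. The kinase gene ROCK2 was at 5.08, 4.48 and 4.17 FPKM in siRBCK1 libraries, against 2.55, 2.58 and 1.76 FPKM in siControl libraries, a log2 fold change of 0.77 (SE 0.11, limma adjusted p = 0.000318). ROCK1 was at 5.31 ± 0.333 FPKM in siRBCK1 cells and 3.73 ± 0.552 FPKM in siControl cells (SD, n = 3 each, log2 fold change 0.42, limma adjusted p = 0.00459). CDC42BPA, which encodes the ERM kinase MRCK alpha, rose by 0.45 and SLK by 0.29 on the log2 scale. SLK kept its call in 5 of 14 alternatives, and among the losses were those without any 1 siRBCK1 library (between 0.28 and 0.32) and without siControl replicate 3 (0.17). TIAM1, a Rac exchange factor that binds CD44, was at 2.10, 1.72 and 1.85 FPKM in siRBCK1 libraries, against 1.06, 1.06 and 0.74 FPKM in siControl libraries, a log2 fold change of 0.57 (limma adjusted p = 0.000755). SDC2, a syndecan with an ERM-binding tail, rose by 0.34 on the log2 scale. The other genes of this paragraph kept their calls in every alternative where they were tested.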
